A study of Rattus norvegicus with 6 samples.

Results

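A group of 10 growth factor genes that act on vessels and on healing skin was followed in cultured rat dermal fibroblasts: Vegfa, Vegfb, Vegfc, Angpt1, Angptl2, Kitlg, Adm, Hgf, Fgf2 and Fgf7. They were found through the RefSeq accession that the array gives for each probe, and 15 of the 30367 gene probes belonged to these 10 genes. The fibroblasts received either a control lentivirus (n = 3) or a lentivirus whose shRNA, a hairpin transcript that silences by RNA interference, targets lnc-URIDS, a long non-coding RNA (called knockdown here, n = 3). Both groups received virus at a multiplicity of infection of 10 and 2 µg/mL puromycin, a drug that selects for cells carrying the virus, for 48 h. All cells therefore had been through viral transduction and drug selection. The labels name no strain, age or clone, and leave unstated if replicates were separate cultures, so p-values reflect just the sample-to-sample spread, and that spread may be technical.

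These factors are secreted by stromal cells and act mainly on their neighbours. VEGF ligands bind receptor tyrosine kinases of blood and lymphatic endothelium and direct vessel sprouting, while angiopoietin 1 steadies vessels through the receptor Tek. In the skin, fibroblast Hgf and Fgf7 drive keratinocytes to migrate and divide over a wound, Fgf2 drives fibroblasts and endothelium, and stem cell factor (Kitlg) keeps melanocytes and mast cells alive through the receptor Kit. Adrenomedullin (Adm) is a vasodilator peptide that acts through Calcrl and its Ramp partners. Transcription of Vegfa and Adm is induced by low oxygen in many cell types.

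The upstream sequences of Vegfa, which had a higher mean in knockdown, and of Kitlg and Adm, which had lower ones, are shown because all 3 hold the same promoter element although their differences ran in opposite directions. Each is the 250 bases before the annotated start in RefSeq's GRCr8 table, on the plus strand, 5′ to 3′, with every GGGCGG or its complement CCGCCC (the GC box, bound by Sp1-type factors) in capitals. For Vegfa, which has 2 annotated starts in the table, the first one listed was taken.
Kitlg, chr7:36782410-36782659: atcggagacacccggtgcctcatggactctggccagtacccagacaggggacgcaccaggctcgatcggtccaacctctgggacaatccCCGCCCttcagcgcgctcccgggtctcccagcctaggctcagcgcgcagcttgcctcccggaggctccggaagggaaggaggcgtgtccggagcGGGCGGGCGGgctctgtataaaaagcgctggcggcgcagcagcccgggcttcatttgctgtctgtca
Adm, chr1:174179950-174180199: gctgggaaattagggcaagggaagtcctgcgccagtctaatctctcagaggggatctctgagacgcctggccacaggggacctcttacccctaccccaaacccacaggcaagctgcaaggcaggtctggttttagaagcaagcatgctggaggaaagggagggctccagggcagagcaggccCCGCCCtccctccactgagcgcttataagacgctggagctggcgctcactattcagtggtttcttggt
Vegfa, chr9:22452604-22452853: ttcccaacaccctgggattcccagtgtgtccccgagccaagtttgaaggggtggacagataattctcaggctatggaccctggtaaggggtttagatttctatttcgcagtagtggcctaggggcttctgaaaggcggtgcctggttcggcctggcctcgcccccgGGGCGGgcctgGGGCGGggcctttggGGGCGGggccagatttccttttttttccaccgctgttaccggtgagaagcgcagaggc
The GC box occurred 3 times in Kitlg and in Vegfa, counting overlapping copies, and 1 time in Adm. Of the 9 genes with an entry in the table, 6 held it (Vegfa, Vegfb, Vegfc, Angptl2, Adm and Kitlg), against 30.5% of the 33469 windows of the same length. Each of the 9 genes was counted once, while a gene with several starts, such as Vegfa, adds several windows. The shares here and below therefore differ in unit, and no enrichment was tested. The hypoxia response core ACGTG, searched on both strands, was found only in the Fgf2 window among these 9 and in 16.6% of all windows. Only these 250 bases were searched, so copies further upstream would be missed. TATAAA was found in Kitlg and Fgf7, and in 12.9% of all windows. The letters shown say nothing of which factors were bound in these cells. No promoter was matched for Angpt1.

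Levels are given as log2 processed signal after subtracting the 75th percentile of gene spots on the same array, so that 0 is a spot brighter than 75% of them. Testing required a probe to clear background on each of the 3 arrays of either group, and the brightest tested probe stood for a gene. The 75th percentile lay between 1494 and 1612 signal units on the 6 arrays, 68.8% to 74.1% of probes were well above background, and saturated spots numbered 0. Precision is limited by how few arrays there are. The fibroblast identity of the cells was read from 11 markers, of which 9 were well above background on all 6 arrays, among them Col1a1, Col1a2, Col3a1, Pdgfra and Vim, while the probes for Dcn and Lum were not above it on any array. At an unadjusted p under 0.05 in limma, Fap and Postn had higher means (5.9% of all features) and Pdgfra and Vim lower ones (8.24%). Their log2 differences were 0.23, 0.20, -0.51 and -0.11, and their part in the results was not tested. The summed signal of the fibroblast list was 801548 to 859446 in controls and 791373 to 815847 in knockdown, and that of the endothelial list was 710 to 769 and 691 to 818. Such sums, here and below, add the highest processed signal of each gene and were not scaled between arrays. On control 1, Col1a1, Col1a2 and Col3a1 gave 197413, 187254 and 183918 of the 826873 units of the fibroblast list. Of the mural cell list, 8 of 9 markers were above background on all 6 arrays. The lncRNA itself was not checked, since no probe named here carries its name. In such bulk samples fewer cells of a type and less RNA per cell cannot be told apart.

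Of the 10 growth factor genes, 9 were tested, and limma gave none of them an adjusted p under 0.05. The same held for all 18464 genes and unnamed transcripts tested (0% called), although 14.1% of them had an unadjusted p under 0.05. At that unadjusted level 7 of the 9 genes differed between groups: Vegfa and Angptl2 had higher means in knockdown (5.9% of all features), and Kitlg, Adm, Angpt1, Fgf7 and Vegfc had lower means (8.24% of all features). Over all features at that level 41.7% had a higher mean in knockdown, and 57.2% with arrays centred on their median, so the balance of directions depends on the scaling, while these 7 genes kept their signs. In 6 of the 9 all knockdown values lay on the same side of all controls, against 21.8% of all features; 2 of these were higher (9.94% of all features) and 4 lower (11.9%). By their means alone 3 of the 9 were higher in knockdown and 6 lower, against 47.2% and 52.8% of all features. Probe by probe, 8 of 13 had an unadjusted p under 0.05 (14.5% of all probes), 3 of them higher (5.76%) and 5 lower (8.72%). The groups were apart in 7 probes (22.2%), 3 higher (9.66%) and 4 lower (12.5%), and the means of 5 probes were higher (46.3%) and of 8 lower (53.7%). The median size of the log2 difference was 0.42 over the 9 genes and 0.08 over all features, and 3 of the 9 differed at least 1.5-fold, against 2.06% of all features. The genes were chosen with results of these arrays known, so these counts are descriptions and lend no support of their own. The count of 7 depends on single arrays: it was 4 without control 3, 3 without knockdown 2 and 4 without knockdown 3.

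**Figure D1:**
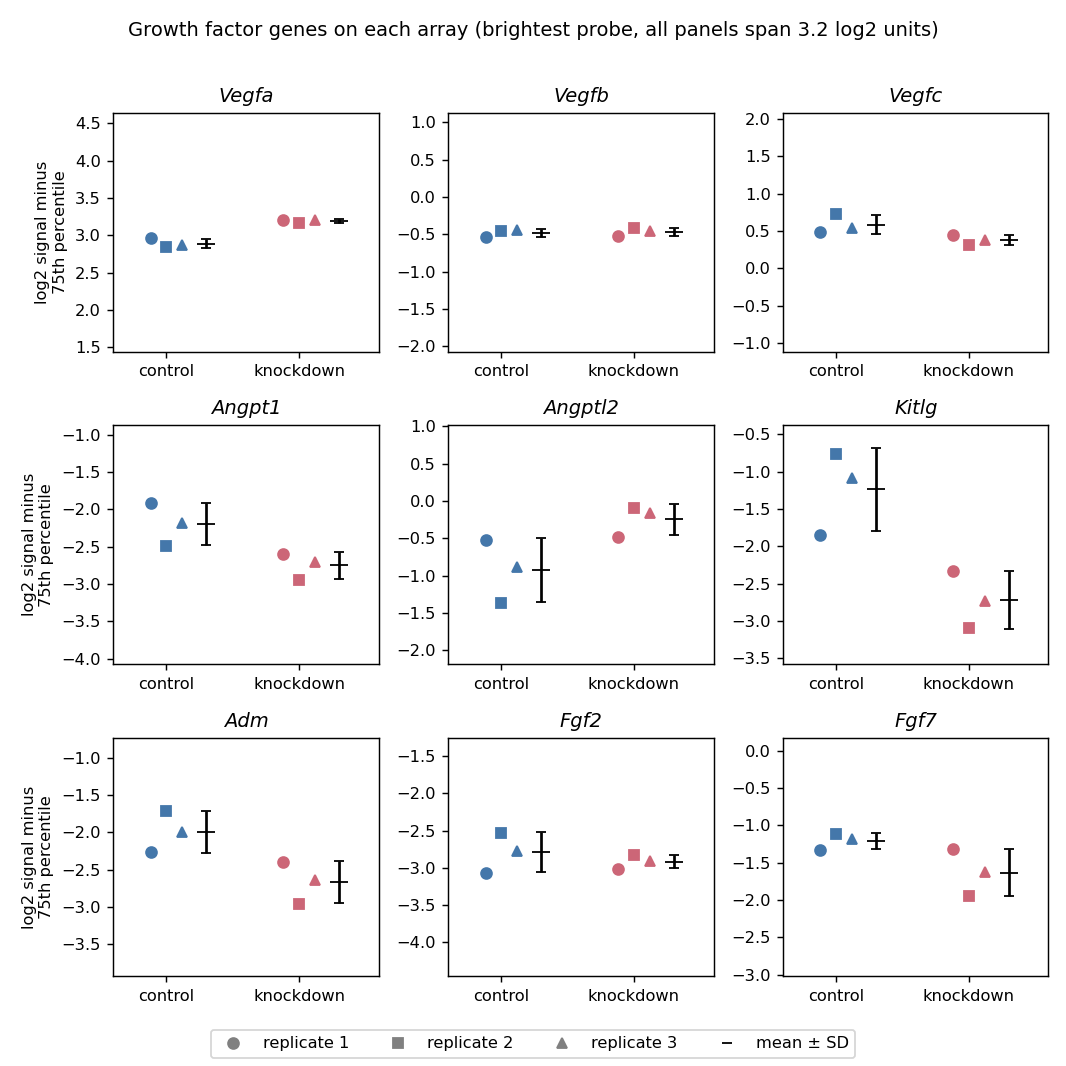
Scaled log2 signal (array's 75th percentile set to 0) for the brightest probe of each of the 9 tested genes, in control (blue) and knockdown (red) fibroblasts; shapes are replicate numbers, black bars are means ± SD (n = 3), and every panel spans the same height. Kitlg and Adm lie lower in all 3 knockdown samples than in any control, Angptl2 and Vegfa lie higher, and Vegfb and Fgf2 overlap.

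Among the VEGF ligands, Vegfa had a higher mean in knockdown, Vegfb was level and Vegfc had a lower mean. The brightest Vegfa probe read 2.96, 2.84 and 2.87 in controls 1, 2 and 3 against 3.2, 3.16 and 3.21 in knockdown 1, 2 and 3. Every knockdown sample lay above every control, and the SD within a group was 0.06 in controls and 0.02 in knockdown. The fold was 1.23 (95% confidence interval 1.14 to 1.34; limma unadjusted p = 0.000894, adjusted p = 0.197). The difference on the log2 scale was 0.29 within slide 1 (arrays sharing a scan identifier), which held 2 arrays of each group, and 0.34 within slide 2, which held 1 of each; with slide as a block the adjusted p was 0.223. With array quality weights Vegfa passed (adjusted p = 0.0434), but those weights called 877 features and gave knockdown 3 a weight of 4.63 against 0.41 to 1.66 for the others.

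The 4 Vegfa probes did not give the same answer. The brightest (A_64_P099886) and the dimmest (A_64_P155983) were both annotated to NM_031836, and the others (A_64_P099891 and A_64_P099893) to NM_001110334; both accessions belong to Vegfa, which has many splice forms. In processed signal, A_64_P099886 read 11605, 11544 and 11535 units in controls against 13943, 13593 and 13927 in knockdown. Probe A_64_P155983 had log2 values of -3.40, -3.59 and -3.51 in controls against -3.29, -3.40 and -3.27 in knockdown, where control 1 and knockdown 2 were equal to 2 decimals, and a fold of 1.13 (unadjusted p = 0.041). Probe A_64_P099891 had -0.33, -0.50 and -0.47 against -0.31, -0.30 and -0.30, which lie apart only narrowly, and a fold of 1.09 (unadjusted p = 0.0662). Probe A_64_P099893 went the other way, with -1.57, -1.64 and -1.68 against -1.64, -1.78 and -1.66, overlapping groups and a fold of 0.959 (unadjusted p = 0.334). The 95% intervals of A_64_P099886 (1.14 to 1.34) and A_64_P099893 (0.869 to 1.06) did not overlap, and the difference between these probes was not itself tested. Averaging the 4 probes gave a log2 difference of 0.14.

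Vegfb, which signals through Flt1 and has little part in sprouting, gave nearly the same signal in both groups. It read -0.54, -0.46 and -0.44 in controls against -0.53, -0.42 and -0.46 in knockdown. The groups overlapped, although knockdown 2 was the highest array and control 1 the lowest, with a fold of 1.01 (95% interval 0.92 to 1.1; limma adjusted p = 0.971). Its difference had opposite signs on the slides, 0.06 on slide 1 and -0.10 on slide 2. Vegfc, the main growth factor of lymphatic vessels, read 0.49, 0.73 and 0.54 in controls against 0.44, 0.31 and 0.38 in knockdown. The knockdown samples were all lower, but knockdown 1 came close to control 1. The fold was 0.862 (0.753 to 0.986; unadjusted p = 0.0356, adjusted p = 0.319), and the log2 difference was -0.27 on slide 1 and -0.10 on slide 2. Its unadjusted p was above 0.05 in 4 of the 6 fits that left out 1 array, and its log2 difference went from -0.21 to -0.14 without control 2.

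The angiopoietin family members had differences of opposite sign. Angpt1, the ligand that activates Tek, read -1.92, -2.49 and -2.18 in controls 1, 2 and 3 against -2.60, -2.95 and -2.70 in knockdown 1, 2 and 3. No knockdown sample reached the lowest control, which was control 2. The fold was 0.683 (0.514 to 0.906; unadjusted p = 0.0167, adjusted p = 0.246), with -0.62 on slide 1 and -0.42 on slide 2 on the log2 scale. Angptl2, an angiopoietin-like protein that does not bind Tek and acts in inflammation and matrix remodelling, read -0.52, -1.37 and -0.89 in controls against -0.48, -0.09 and -0.16 in knockdown. All knockdown samples were higher, with knockdown 1 only just above control 1. The fold was 1.61 (1.08 to 2.39; unadjusted p = 0.0262, adjusted p = 0.285), and the log2 difference was 0.82 on slide 1 and 0.41 on slide 2. The unadjusted p was above 0.05 without control 3, without knockdown 2 and without knockdown 3, and the log2 difference was 0.46 without control 2. For Angpt1 the unadjusted limma p was above 0.05 in 1 of the 6 fits that left out 1 array, the fit without knockdown 2. Each gene was read by 1 probe, so no second probe could be set against it.

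Kitlg had the largest difference of the 9 genes. On its brightest probe (A_43_P14111) the processed signal was 416, 948 and 743 units in controls 1, 2 and 3 against 301, 177 and 227 in knockdown 1, 2 and 3. All 3 knockdown samples lay below the lowest control, control 1, which was itself far dimmer than control 2. On the log2 scale the values were -1.85, -0.77 and -1.09 against -2.33, -3.10 and -2.73. The fold was 0.357 (0.204 to 0.625; unadjusted p = 0.00437, adjusted p = 0.197), with -1.61 on slide 1 and -1.24 on slide 2. Kitlg passed with array quality weights (adjusted p = 0.0434), and its adjusted p with slide as a block was 0.223.

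The other Kitlg probes, annotated to the same accession NM_021843, did not separate the groups as the brightest one did. Probe A_64_P083349 had log2 values of -4.77, -4.58 and -4.18 in controls against -4.35, -4.93 and -4.77 in knockdown, with overlapping groups and a fold of 0.89 (0.623 to 1.27; unadjusted p = 0.45). Its interval overlapped that of the brightest probe only between 0.623 and 0.624 in the fit over all probes. The sign of this probe turned in 1 of 19 alternatives, a normexp background (0.16). With array quality weights its log2 difference was -0.48 (limma adjusted p = 0.0538). Probe A_64_P054581 was not tested: it was well above background in controls 2 and 3 and on no other array, with signals of 7.74, 19.8 and 15.7 units in controls against 10.6, 3.93 and 8.51 in knockdown. Its measured means were -6.87 in controls and -7.74 in knockdown, and no fold is given, since control 1 and all knockdown values were not measured above background. The mean of the 2 tested probes had a log2 difference of -0.83 in place of -1.49, with an adjusted p of 0.247.

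**Figure D2:**
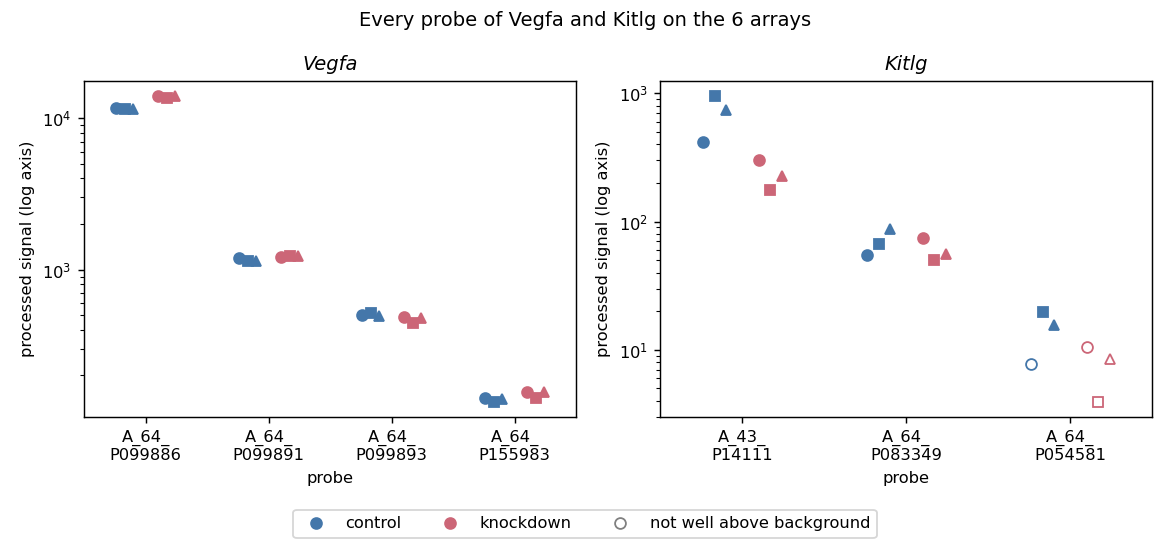
Processed signal (log axis) of every Vegfa probe (left) and every Kitlg probe (right) on the 3 control (blue) and 3 knockdown (red) arrays; open symbols were not well above background, and shapes are replicate numbers. Within each gene the brightest probe separates the groups, while Vegfa A_64_P099893 and Kitlg A_64_P083349 overlap.

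Adm had a lower mean in knockdown, and its precision within an array was high because its probe was printed 10 times. It read -2.27, -1.71 and -2.0 in controls against -2.40, -2.96 and -2.64 in knockdown. The groups did not overlap, and control 1 and knockdown 1 were the closest pair. The fold was 0.628 (0.45 to 0.874; unadjusted p = 0.0141, adjusted p = 0.237), with -0.81 on slide 1 and -0.40 on slide 2. The SD between the spots of an array was 0.03 to 0.06 log2 units, against 0.28 between the samples of each group. On control 2 the spots ran from 473 to 511 units and on control 1 from 291 to 326, with no overlap of the spots.

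Of the wound mitogens, Fgf7 and Fgf2 had lower means and Hgf was not well above background. Fgf7, the keratinocyte growth factor, read -1.33, -1.12 and -1.19 in controls against -1.32, -1.95 and -1.63 in knockdown. Knockdown 1 lay at the level of control 1, so the groups overlapped. The fold was 0.748 (0.565 to 0.99; unadjusted p = 0.0443, adjusted p = 0.339), with -0.56 on slide 1 and -0.13 on slide 2. Without knockdown 2 the log2 difference shrank from -0.42 to -0.26, and the unadjusted p was above 0.05 in 5 of the 6 fits that left out 1 array (the exception was the fit without knockdown 1). Fgf2, also printed 10 times, read -3.07, -2.53 and -2.77 in controls against -3.01, -2.83 and -2.91 in knockdown. All 3 knockdown values fell inside the range of the controls, with a fold of 0.916 (0.718 to 1.17; adjusted p = 0.782), and without control 2 the log2 difference was 0.0021. The SD between Fgf2 spots of an array was 0.03 to 0.06 here too, against 0.27 between control samples and 0.09 between knockdown samples. Hgf signals were 2.34 to 3.05 units, 0 of the 8 or 9 spots kept per array were well above background, and it was left out of the test.

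**Figure D3:**
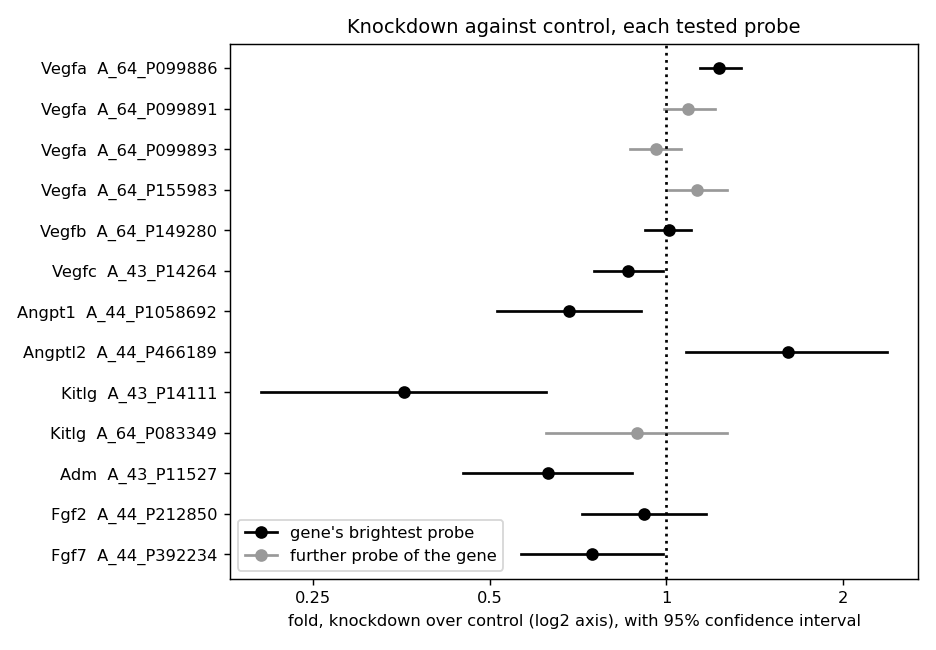
Fold of knockdown over control (log2 axis) with 95% confidence intervals from the limma fit over all probes, for the 13 tested probes of the growth factor genes; black marks the probe that stands for its gene and grey a further probe. The folds run from 0.357 for the brightest Kitlg probe to 1.61 for Angptl2, and the grey Vegfa and Kitlg probes lie closer to 1 than the black ones.

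Of the 9 genes, 4 shared an order of the arrays, or its reverse, that the group labels do not give. Kitlg, Adm and Vegfc each ran, from high to low, control 2, control 3, control 1, knockdown 1, knockdown 3, knockdown 2, and Angptl2 ran in exactly the reverse order. That order held in 1.6% of the 18459 features with complete values and the reverse in 1.85%; both together made up 15.8% of the features whose groups did not overlap. Control 2 was the highest array for 5 of the 9 genes and knockdown 2 the lowest for 5, while over all features these shares were 19.8% and 22.7%. Control 1 and knockdown 1 were neighbours in this order and lay on different slides. This order was noticed after the values were seen.

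Of 8 tested mural cell markers, a list that overlaps with genes of contractile fibroblasts, 3 had lower and 2 higher means at an unadjusted p under 0.05. Over all features 8.24% were lower and 5.9% higher at that level. None of the 8 markers passed the adjusted test, and their median log2 difference was -0.08. The log2 differences in limma were -1.14 for Abcc9, -1.32 for Kcnj8, -0.20 for Des, 0.77 for Mcam and 0.55 for Myh11. Their summed signal was 27238 to 32776 in controls and 29047 to 32477 in knockdown, and the probe for Rgs5, a defining pericyte gene, was not above background on any array. Their part in the results was not tested. Of 10 endothelial markers with a probe, Pecam1, Cldn5, Tie1 and Plvap were not above background on any array. Cdh5, Flt1 and Kdr were above it on all 6 arrays, at 240 to 290, 300 to 450 and 20.4 to 30.5 units. Esam was above it in all 3 controls and 2 knockdown samples. These 4 were tested, and none had an unadjusted p under 0.05 in limma, against 14.1% of all features. The keratinocyte, leukocyte and melanocyte lists likewise had 0 of 3, 0 of 5 and 0 of 1 tested markers at that level with the limma test, and of the mast cell list none could be tested. A second probe of the leukocyte gene Aif1 had a log2 difference of 0.76 (limma unadjusted p = 0.044), against -0.03 on the brightest. The keratinocyte gene Dsg3, which was not tested, had signals of 3.74, 2.95 and 9.02 units in controls against 6.94, 108 and 127 in knockdown, above background in 2 knockdown samples and in 0 controls. The part of these markers in the results was not tested. The summed signals of those 4 lists were 223 to 292, 1382 to 1788, 572 to 883 and 30.3 to 69.8 in controls and 257 to 344, 1398 to 1463, 579 to 813 and 32.6 to 64.4 in knockdown.

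The receptors for these ligands were in part not above background in the fibroblasts. Of 19 receptors and co-receptors, 18 had a probe and 13 were tested; none passed the adjusted test, 9 had lower and 4 higher means, and the median log2 difference was -0.09. Calcrl, the adrenomedullin receptor, and Tie1 were not above background on any array, Kit was above it on 1 array and Tek on 1 of 3 arrays in each group. The 13 tested receptors and co-receptors were above background on all 6 arrays. Among them Flt1, Kdr, Flt4, Met and Fgfr1 had log2 differences of 0.01, 0.09, -0.05, -0.09 and -0.03 on their brightest probes. Kdr was dim, at 20.4 to 30.5 units. At an unadjusted p under 0.05, Nrp1, Nrp2, Fgfr3 and Ramp2 had lower means (8.24% of all features) and Fgfr2 a higher one (5.9%). Ramp2, which carries Calcrl to the cell surface, read -1.43, -1.26 and -1.36 in controls against -1.57, -1.76 and -1.61 in knockdown, without overlap and with a fold of 0.815 (adjusted p = 0.207). Nrp2, a VEGF co-receptor, had signals of 31.3, 49 and 42.6 units in controls against 29.3, 23.6 and 25 in knockdown, a fold of 0.663 (adjusted p = 0.225); its log2 difference was 0.07 with a normexp background. Fgfr2, whose IIIb form is the receptor for Fgf7, had a fold of 1.18 on its brightest probe (adjusted p = 0.225), but its other probes had log2 differences of 0.02, 0.04 and -0.34, and the mean of all 4 probes gave -0.01.

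Related ligands outside the 10 genes had means on both sides. Of 32, 17 were tested, with 10 higher and 7 lower means, a median log2 difference of 0.01 and none passing the adjusted test. At an unadjusted p under 0.05 only Adm2 and Fgf1 differed, against 14.1% of all features. Areg (fold 0.618, limma unadjusted p = 0.0558) and Fgf18 (fold 1.53, 0.0564) had larger differences, with overlapping groups. Adm2, a peptide related to Adm, went opposite to it, with 43.8, 37.5 and 42.9 units in controls against 54.4, 71.9 and 51.2 in knockdown and a fold of 1.46 (adjusted p = 0.233). These signals were dim, and the log2 difference of Adm2 went from 0.55 to 0.48 with a normexp background and 0.22 with quantile scaling added. Fgf1 had a fold of 0.907 (adjusted p = 0.328). Pgf, the placental relative of Vegfa, had a fold of 1.01, and Angpt2, the antagonist of Angpt1, was not above background on any array. Vegfd, which was not tested, had signals of 14.6, 49.6 and 28.4 units in controls against 11.9, 9.6 and 8.41 in knockdown. It was above background in 2 controls and 0 knockdown samples.

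Among 17 tested proteins that process, store or bind these ligands, 7 had higher and 10 lower means, with a median of -0.06 and none passing the adjusted test. Spint2, an inhibitor of the protease that activates Hgf, read -2.81, -3.17 and -2.97 in controls against -2.61, -2.41 and -2.55 in knockdown, a fold of 1.38 without overlap (adjusted p = 0.2). Sdc4, a heparan sulfate co-receptor for Fgf2, read 1.06, 1.32 and 1.17 against 0.88, 0.82 and 0.85, a fold of 0.793 without overlap (adjusted p = 0.197), and its second probe had a log2 difference of -0.28. Mmp9, which frees VEGF from the matrix, had signals of 36.8, 62.7 and 51 units in controls against 23.2, 10.7 and 16.5 in knockdown. It entered the test through the controls alone, since knockdown 2 was not above background, so its fitted log2 difference of -1.57 (adjusted p = 0.197) is not a measured size; it was -0.17 with a normexp background.

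The hypoxia factors and their targets were set beside Vegfa and Adm, both of which are targets of those factors in other settings. Of 19 tested genes, 14 had lower and 5 higher means, with a median log2 difference of -0.06 (a fold of 0.958), against 52.8% of all features with a lower mean. None passed the adjusted test. At an unadjusted p under 0.05 only Bnip3, a mitophagy gene, differed, against 14.1% of all features. Its fold was 0.9 (limma adjusted p = 0.34). Hif1a had a fold of 0.97, Epas1 0.793 and the glucose transporter gene Slc2a1 1.01 (adjusted p of 0.738, 0.417 and 0.972). Vegfa at 1.23-fold on its brightest probe and Adm at 0.628-fold lay on opposite sides of this list's median. The further Vegfa probes had log2 differences of 0.13, -0.06 and 0.18, and the mean of its 4 probes gave 0.14.

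**Figure D4:**
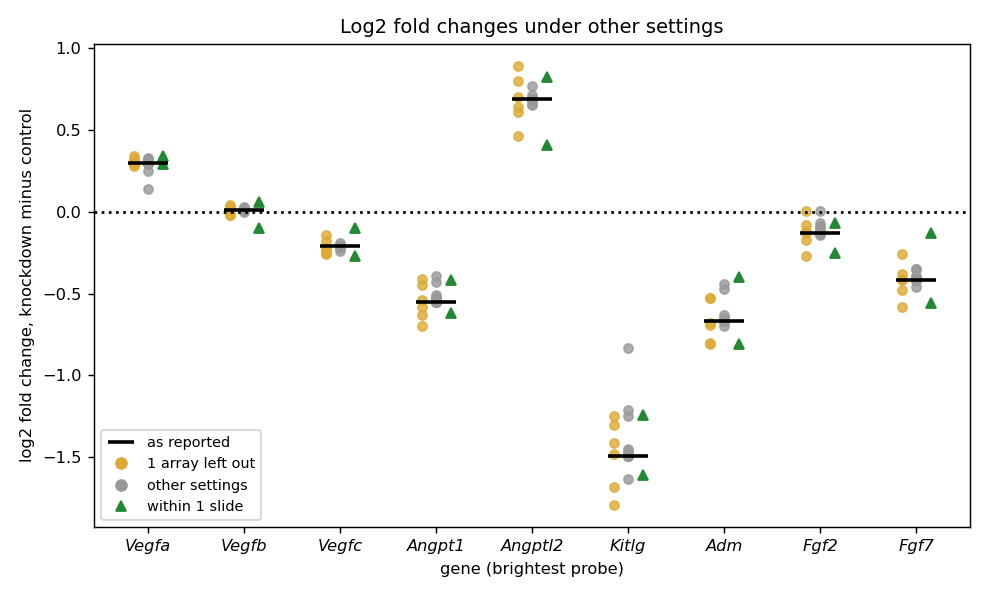
Log2 fold change (knockdown minus control) of the brightest probe of each tested growth factor gene, as reported (black bars), with 1 array left out (yellow), under other processing settings (grey) and within each slide (green triangles; slide 2 held 1 array of each group and has no test). The grey points include, in place of the brightest probe, the mean of a gene's tested probes (0.14 for Vegfa and -0.83 for Kitlg). Vegfa, Angptl2, Kitlg, Adm, Angpt1, Fgf7 and Vegfc kept their sign throughout, while Vegfb and Fgf2 crossed 0.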

How the data were processed

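Total RNA of 6 samples was labelled with Cy3 and hybridised to single-colour Agilent rat arrays, 1 array per sample, per the labels. The authors deposited scanner output with linear intensity values, background-subtracted and detrended within each array by Agilent Feature Extraction (the file headers give release 11.0.1.1, while the processing notes of the submitters name 11.0.0.1) and not normalized between arrays.

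Control spots were left out, as were outlier spots (386 to 513 per array). The log2 processed intensity minus the array's 75th percentile over gene spots was averaged over spots of a probe. Of 30367 probes, 18005 matched a symbol by unversioned RefSeq accession (GRCr8 table, names only); 20776 were tested, and the brightest tested probe stood for a gene, giving 18464 features. The group difference was fitted in limma 3.58.1 (R 4.3.3), Benjamini-Hochberg adjusted over all features, and in a second fit over all probes, from which come values of single further probes. The steps were tested on simulated data. Every growth factor gene was named; in other lists, the up to 3 largest differences at an unadjusted p under 0.05, further receptors by detection, and a few well-known members chosen after values were seen. The genes and lists were chosen with earlier results of these data known.

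Scan identifiers in the file headers, read as slides, put controls 1 and 2 and knockdown 2 and 3 on slide 1 and the others on slide 2. Replicate numbers were not taken as pairs. Alternatives were other scalings, normexp (offset 50, on median intensities), filters, probe means, an intensity trend, array weights, blocks, single slides and leaving out each array; a percentile over probes was added after seeing the data.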

Additional observations from a re-analysis of the deposited data

How the results depend on the processing

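Over 20 alternatives, Vegfc, Angpt1, Angptl2, Adm and Fgf7 kept their direction and did not pass in any, and Vegfa and Kitlg kept theirs and passed only with array quality weights. No feature passed with the reported settings; 1 did with centring on the median of tested probes (Scg2, log2 fold change 1.39), in the gene fit and in the probe fit, and array quality weights called 877 features (351 higher, 526 lower) and 4863 probes. In every fit without 1 array, and in the other settings, 0 features and 0 probes passed (at an unadjusted p under 0.05, 663 higher and 628 lower features in the fewest, with normexp). Signs turned with a normexp background for Vegfa A_64_P099893 (0.04, and 0.02 with quantile scaling added), Kitlg A_64_P083349 (0.16), Fgf2 (0.0028) and Nrp2 (0.07); the cause was not tested. Leaving out 1 array at a time gave Vegfb -0.02 (without control 1, and without knockdown 2) to 0.04, and -0.10 within slide 2, where Vegfa A_64_P099893 was 0.04; Fgf2 ran from -0.27 (without control 1) to 0.0021 (without control 2), and Fgfr2 was -0.01 as the mean of its probes. The share of higher means among features with an unadjusted p under 0.05 was 41.7% as reported, 57.2% with median centring and 52.9% with quantile normalization. With the replicate block 0 features passed, and of the 9 growth factor genes 3 instead of 7 had an unadjusted p under 0.05; deviations of same-numbered samples correlated at 0.10, 0.26 and -0.29, so the numbers were not taken as pairs, and not every sample correlated best with its own number. No test was possible within slide 2, and Mmp9 was not tested with the filter on all 6 arrays. Signals near background limit Hgf, Kitlg A_64_P054581, Nrp2, Adm2, Vegfd and Mmp9.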
